A study of Mus musculus with 16 samples.

Results

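Atrial tissue taken 3 days after myocardial infarction was compared with atrial tissue of sham-operated mice. The comparison used 8 of the 16 arrays of the series, chosen by their labels, 4 from mice 3 days after infarction (day 3, arrays 31 to 34) and 4 from sham-operated mice (arrays 1 to 4). All mice were male wild-type C57BL/6 aged 10 weeks, and the infarct was produced by ligating the coronary artery that descends along the front of the left ventricle. The labels speak of atrial tissue without saying whether left and right atria were kept apart, and they name no time after surgery for the sham mice. The arrays of day 1 and day 7 after infarction, 4 each, entered the fit. They shared in its estimate of spread and in the choice of genes to test, and otherwise served to place day 3 in time. The labels do not say that the arrays of a group came from separate animals. The p-values therefore measure the spread between arrays within groups, over all 16 arrays, which may in part be technical. Values are log2 signals, and every difference is on the log2 scale, day 3 minus sham. A gene was called when its adjusted p in limma's moderated test (Benjamini-Hochberg over all genes tested) was under 0.05. In total 18389 genes were tested.

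In the days after an infarct, neutrophils and then monocytes enter the injured wall, monocytes become macrophages that clear dead cells, and fibroblasts divide and lay down collagen. The atria are stretched in the same period because filling pressure rises, and they answer stretch by making natriuretic peptides. Atrial muscle runs on mitochondrial oxidation of fatty acids and is set apart from ventricular muscle by its own myosin light chains (Myl7, Myl4), by sarcolipin (Sln) and by the acetylcholine-gated potassium channel (Kcnj3, Kcnj5). In whole tissue, fewer cells of a type and less RNA per cell cannot be told apart.

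Among the day 3 and sham arrays, array 31 stood apart. Control separation, the area under the receiver operating curve for positive against negative control rows, was 0.743 on array 31 and 0.816 to 0.825 on arrays 32 to 34, beside 0.812 to 0.821 on the sham arrays. On the day 1 arrays it was 0.755 to 0.804, lowest on array 13. Array 31 was singled out by this measure, so the measure is described and no test of it is given. Over the tested genes array 31 lay closer to the mean of the day 1 arrays than to that of its own group, at root mean square log2 distances of 0.742 and 1.088. Arrays 32, 33 and 34 each lay closest to the mean of the others of these 3, at 0.279, 0.237 and 0.203, and 0.563 to 0.644 from day 1. The cause was not tested, and results are given with array 31 and without it. A log2 difference in square brackets, or a count in round brackets, is the same quantity without array 31, with n = 3 against 4. The tissue label was checked on marker genes of atrial and ventricular muscle. Nppa, atrial natriuretic peptide, stood at the top of the scale on all sham arrays (19.93, 19.93, 19.93 and 19.93), where no difference can be read. Myl7 read 18.05, 18.29, 17.62 and 17.93 and Sln 17.93, 18.05, 17.72 and 18.16 in sham, whereas the row of Myl4 read only 6.89 to 7.13. Of the ventricular genes, Myl2 read 9.71 to 9.86, Irx4 5.16 to 5.59 and Hey2 6.24 to 6.44, but Myl3 read 16.01 to 16.29 and Myh7 13.07 to 14.19 in sham, and rows of different genes cannot be ranked against one another. Myl2 was lower on day 3, at 8.55, 9.0, 8.79 and 8.88 on arrays 31 to 34, a difference of -0.99 [-0.90].

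Day 3 atria differed from sham in 43.8% of the genes tested. Of the 18389 genes 4330 were called higher (23.5%) and 3722 lower (20.2%). Differences of at least 1 log2 unit were called in 1707 genes upward and 1141 downward (1801 and 730 without array 31). Without array 31 the share was 45.2%, with 4933 genes higher (26.8%) and 3381 lower (18.4%). With and without array 31 the same 7354 genes were called in the same direction and none in opposite directions, with 698 called only with array 31 and 960 only without it. The 4 values of day 3 did not overlap the 4 sham values in 42.9% of the genes, and the 3 values without array 31 in 53.5%. The split between rises and falls depended on scaling. Rises made up 53.78% of the calls on the deposited values, 36.11% after quantile normalization and 36.91% after centring each array, and without array 31 the same shares were 59.33%, 48.73% and 38.72%. The median difference over all genes was 0.08 [0.03]. The differences below are on the deposited scale. Counts of list members below read against 23.5% of genes called higher and 20.2% lower (26.8% and 18.4% without array 31). They cover only genes above the array median on at least 4 of the 16 arrays, a filter on low values. A gene low in sham may pass it through the infarct arrays, which can raise the share called higher.

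**Figure D1:**
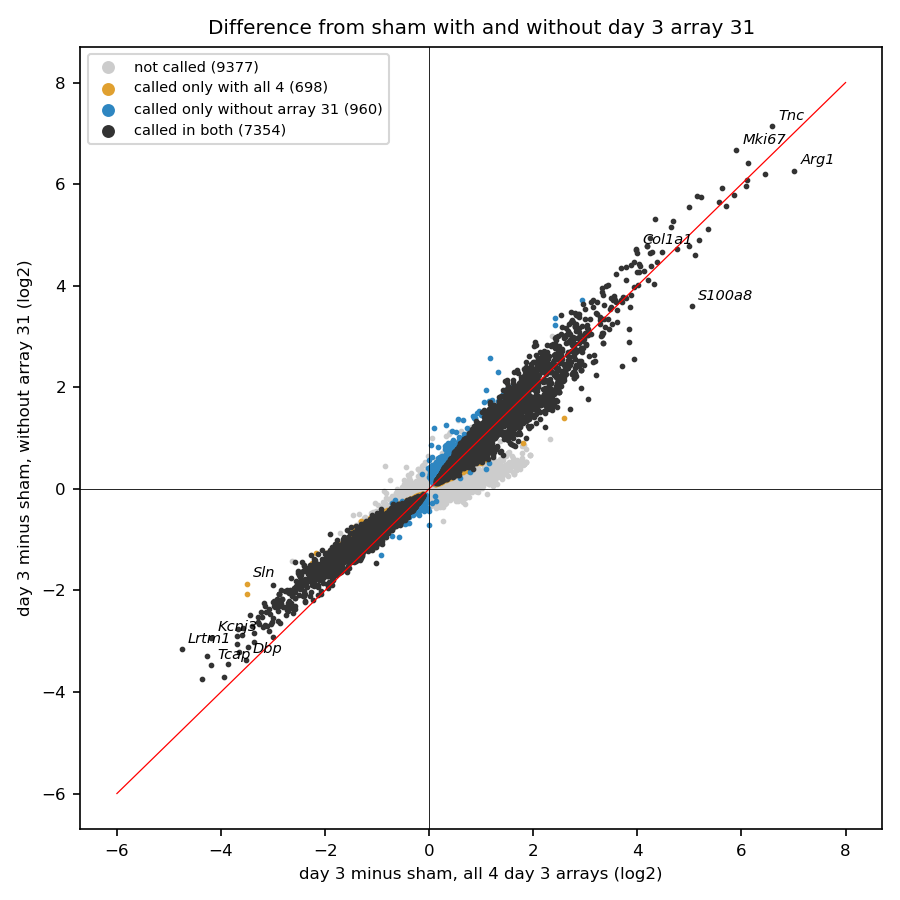
Log2 difference between day 3 and sham for the 18389 tested genes, with all 4 day 3 arrays (horizontal axis) and without array 31 (vertical axis). Points on the red line have the same difference in both. Falls such as Lrtm1 (-4.76 against -3.16) lie above the line, being smaller without array 31, while the rises of Tnc (6.58 against 7.14) and Mki67 (5.90 against 6.67) were larger without it.

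The largest rises were in genes of macrophages, of provisional matrix and of division. Arg1, arginase of wound macrophages, read 5.42, 5.34, 5.49 and 4.96 in sham and 11.65, 11.68 and 11.37 on arrays 32 to 34, with array 31 highest at 14.56. The difference was 7.01 (SE 0.66, adjusted p = 3.0e-06), and 6.26 (SE 0.48, adjusted p = 3.0e-07) without array 31. Tnc, tenascin C of healing matrix, read 5.32, 4.84, 4.96 and 4.64 in sham and 11.83, 12.11 and 12.31 on arrays 32 to 34, with array 31 lower at 9.84. Its difference was 6.58 (SE 0.47, adjusted p = 4.9e-07), and 7.14 (SE 0.32, adjusted p = 1.4e-09) without array 31. No day 3 value of either gene came near the sham range. The other large rises were Ctss, a lysosomal cathepsin (6.12 [6.41]), Thbs1, thrombospondin 1 (6.11 [6.08]), Fn1, fibronectin (6.09 [5.96]), Mki67, the proliferation marker (5.90 [6.67]), and the myeloid inhibitory receptors Lilrb4a (5.85 [5.78]) and Lilr4b (5.71 [5.58]), near-identical genes whose signals may not be separate. Mpeg1, a pore-forming protein of macrophages (5.62 [5.92]), Hmox1, haem oxygenase 1 (5.57 [5.65]), Sprr1a, a stress gene of heart muscle (5.36 [5.11]), Lox, lysyl oxidase (5.23 [5.74]), Tgfbi, a matrix adaptor (5.18 [4.90]), and the leukocyte membrane gene Ms4a4c (5.14 [5.77]) followed. Slfn4, a schlafen gene of myeloid cells, was not above background on any sham array and rose by at least 6.37 [6.12]. Its day 3 values were 11.62, 6.97, 12.84 and 12.00 on arrays 31 to 34, array 32 standing well below the rest.

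Genes of heart muscle were among the largest falls. Tcap, telethonin of the Z-disc, read 14.92, 15.04, 15.28 and 14.80 in sham, 11.69, 11.23 and 11.69 on arrays 32 to 34 and 8.63 on array 31. The difference was -4.20 (SE 0.56, adjusted p = 4.2e-05), and -3.47 (SE 0.32, adjusted p = 1.5e-06) without array 31. Kcnj3, a subunit of the acetylcholine-gated channel, read 12.99, 13.61, 13.62 and 13.71 in sham and 10.59, 10.78 and 10.29 on arrays 32 to 34, with array 31 far below at 5.50. Its difference was -4.19 (SE 0.94, adjusted p = 0.0024), and -2.93 (SE 0.49, adjusted p = 0.00026) without array 31. The groups did not overlap for either gene. The remaining falls were Lrtm1 (-4.76 [-3.16]), the secreted Cytl1 (-4.36 [-3.74]), Cabcoco1 (-4.28 [-3.30]), Scgb1c1, a secretoglobin (-3.94 [-3.71]), Mylk4, a myosin light chain kinase (-3.87 [-3.44]), Asb15 (-3.69 [-2.90]), Lrrc14b (-3.69 [-3.05]), Efcab2 (-3.66 [-2.76]), the amino acid carrier Slc38a3 (-3.66 [-3.22]), Dgat2, which makes triglyceride (-3.60 [-2.88]), Yipf7 (-3.58 [-2.74]), Dbp, a clock output (-3.52 [-3.36]), and the orphan receptor Gpr22 (-3.47 [-3.11]). Array 31 held the lowest of the day 3 values in all 15 genes, by less than 0.5 log2 units in Scgb1c1 and Dbp and by more than 1 in the rest.

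**Figure D2:**
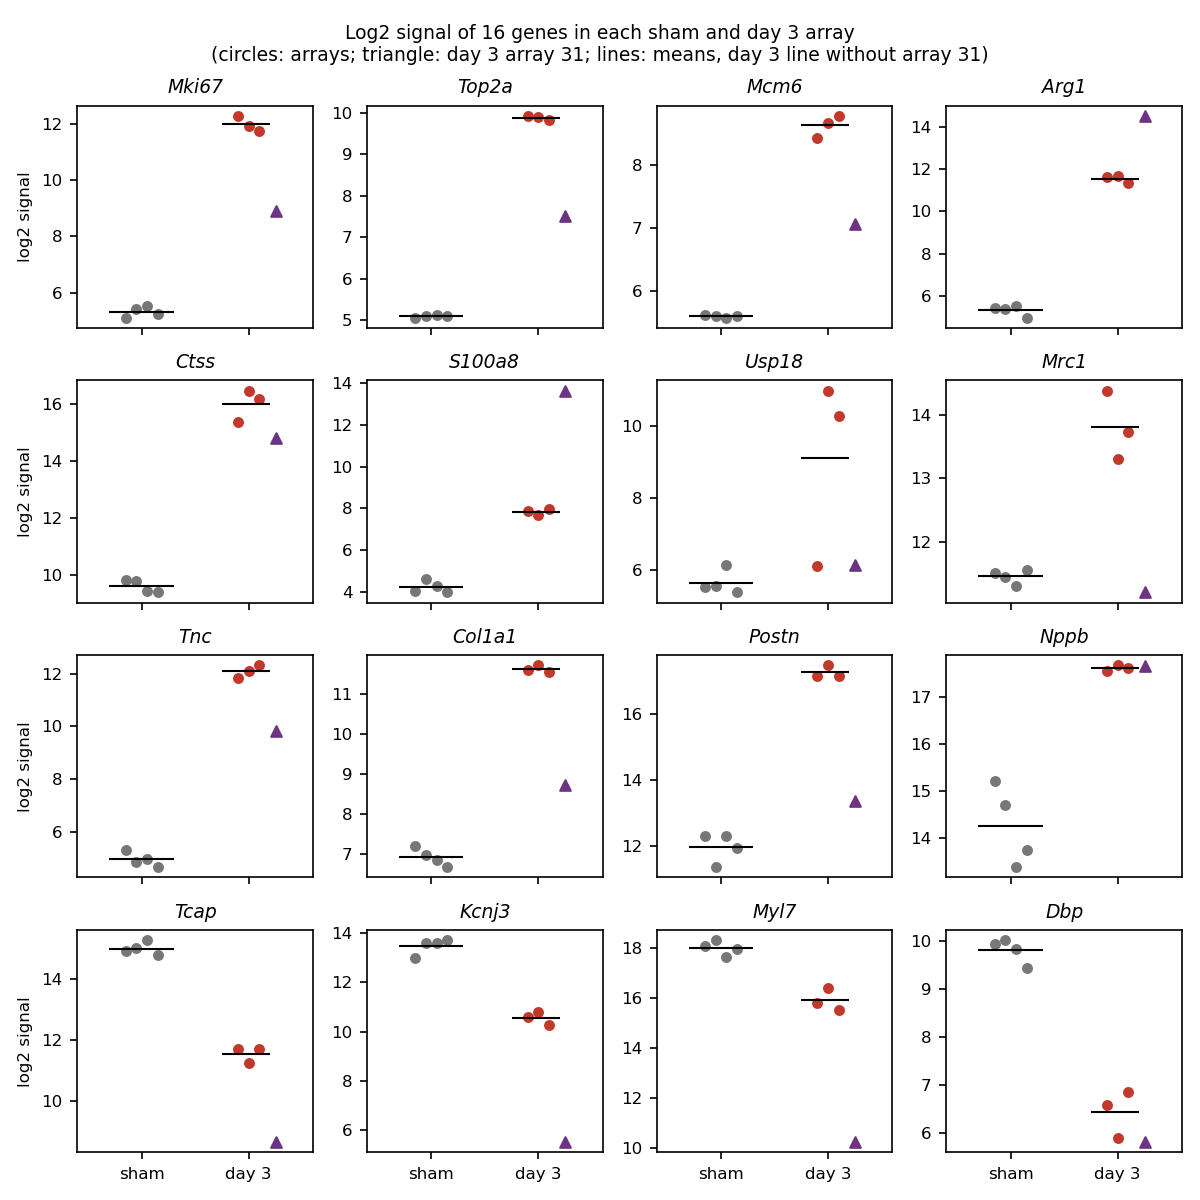
Log2 signal of 16 genes in each sham array (grey circles), day 3 arrays 32 to 34 (red circles) and day 3 array 31 (purple triangle), with a vertical scale for each gene. Lines mark the mean of sham and of arrays 32 to 34. Array 31 lies between the groups for Mki67, Top2a, Mcm6 and Col1a1, outside both for S100a8, Arg1, Kcnj3 and Myl7, and with arrays 32 to 34 for Nppb.

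Most division genes tested rose on day 3, and some of them were not above background in sham. Replication starts when the Mcm2 to Mcm7 helicase is licensed, and mitosis follows when cyclins and the kinases Cdk1, Plk1 and Aurkb drive spindle assembly. Many genes of mitosis carry a cell cycle genes homology region (CHR, letters TTTGAA) near their start, bound by complexes of the MuvB core, often with CCAAT boxes bound by NF-Y, whereas many replication genes carry E2F sites. The stretches below, from RefSeq promoters of GRCm38.p6, run from 120 bases before to 50 bases after the gene start, and belong to the 4 division genes with the largest rise among those matched in the RefSeq table and, added after its values were seen, to the matched licensing gene with the largest rise that holds an E2F match. No entry matched Ccna2 and Tpx2, which rose more than Hmmr. Capitals mark matches on either strand to TTTGAA, to CCAAT, and to the E2F strings TTTGGCGC and TTTCGCGC or TTCCCGCC.
Mki67, chr7:135716330-135716499, minus strand: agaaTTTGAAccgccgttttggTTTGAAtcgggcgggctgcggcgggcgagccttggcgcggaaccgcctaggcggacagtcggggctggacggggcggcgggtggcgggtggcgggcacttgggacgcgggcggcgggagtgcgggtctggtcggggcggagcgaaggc
Top2a, chr11:99024140-99024309, minus strand: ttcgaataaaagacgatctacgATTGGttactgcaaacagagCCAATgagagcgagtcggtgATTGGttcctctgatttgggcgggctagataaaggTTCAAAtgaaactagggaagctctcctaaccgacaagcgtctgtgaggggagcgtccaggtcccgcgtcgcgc
Kif11, chr19:37376262-37376431, plus strand: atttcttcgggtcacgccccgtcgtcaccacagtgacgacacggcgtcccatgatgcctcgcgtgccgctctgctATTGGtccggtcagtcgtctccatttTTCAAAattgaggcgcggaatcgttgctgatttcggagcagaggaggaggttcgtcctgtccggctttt
Hmmr, chr11:40733388-40733557, minus strand: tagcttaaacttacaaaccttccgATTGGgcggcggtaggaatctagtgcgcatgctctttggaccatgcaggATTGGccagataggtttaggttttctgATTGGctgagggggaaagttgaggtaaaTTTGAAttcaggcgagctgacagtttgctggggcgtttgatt
Mcm6, chr1:128359656-128359825, minus strand: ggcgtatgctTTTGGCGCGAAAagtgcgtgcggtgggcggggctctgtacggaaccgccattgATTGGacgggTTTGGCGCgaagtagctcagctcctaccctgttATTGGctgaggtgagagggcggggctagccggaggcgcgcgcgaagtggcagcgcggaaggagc
These 4 mitotic stretches, chosen by rise and match alone, hold TTTGAA, 2 copies in Mki67 and 1 in each of Top2a, Kif11 and Hmmr, and no E2F string. Top2a and Hmmr add 3 CCAAT matches each and Kif11 adds 1. In Mki67 CCAAT lies upstream of the printed stretch, at -188, -166 and -141 bases from the start. Top2a and Hmmr have further matches upstream of theirs. Mcm6 holds 3 E2F matches and 2 CCAAT matches, and no TTTGAA. Matches were allowed to overlap, as they do at the left end of the Mcm6 stretch.

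The values of these genes were as follows. Mki67, carried by dividing cells, read 5.11, 5.43, 5.53 and 5.22 in sham and 12.30, 11.92 and 11.77 on arrays 32 to 34, with array 31 at 8.89. The difference was 5.90 (SE 0.53, adjusted p = 2.0e-06), and 6.67 (SE 0.15, adjusted p = 1.1e-12) without array 31. All 4 day 3 values lay above sham, array 31 about midway. Top2a, the topoisomerase that untangles chromosomes, read 5.06, 5.10, 5.13 and 5.10 in sham and 7.51, 9.93, 9.89 and 9.82 on arrays 31 to 34. It differed by 4.19 (SE 0.39, adjusted p = 3.0e-06), and 4.78 (SE 0.07, adjusted p = 4.1e-14) without array 31. Kif11, the motor that pushes spindle poles apart, read 4.84, 4.71, 4.90 and 4.57 in sham and 6.81, 9.50, 9.34 and 9.32 on arrays 31 to 34, a difference of 3.99 [4.63]. Tpx2, which builds microtubules at the spindle, rose by 3.40 [4.00]. Hmmr, a spindle-associated receptor of hyaluronan, read 4.33, 4.44, 4.56 and 4.36 in sham and 6.10, 8.45, 8.26 and 8.15 on arrays 31 to 34, a difference of 3.32 [3.87]. Array 31 lay between sham and the other day 3 arrays in each. Mcm6, a helicase subunit, read 5.62, 5.60, 5.58 and 5.60 in sham and 7.05, 8.43, 8.67 and 8.78 on arrays 31 to 34, a difference of 2.64 [3.03].

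Most members of the division lists were higher, and the background against which each count reads is 23.5% of genes called higher (26.8% without array 31). All 25 spindle and kinesin genes tested rose with and without array 31, with a median of 2.05 [2.49]. In sham 12 of them were not above background, beside 8 of 22 kinases and cyclins, 5 of 25 kinetochore genes and 3 of 25 licensing genes. Of 25 kinetochore, condensin and chromatin genes 20 were higher and none lower (23 without array 31), among them Nuf2 (2.63 [3.17]). Of 22 mitotic kinases and cyclins 20 were higher in both fits, among them Ccna2, cyclin A2 (3.59 [4.22]), Ccnb2, cyclin B2 (2.80 [3.45]), and the checkpoint kinase Bub1 (at least 1.94 [2.32]). The exception that was called lower in both fits was Pttg1, securin (-1.38 [-1.22]), named after its values were seen. Of 25 licensing and fork genes 20 were higher (23), with Mcm6, Mcm3 (1.92 [2.29]) and Mcm5 (1.75 [2.05]) in the lead and a list median of 0.70 [0.83].

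Nucleotide supply moved in part. Of 15 genes 8 were higher and 2 lower in both fits, the rises led by Rrm1, the large subunit of ribonucleotide reductase (2.27 [2.83]), Tyms, thymidylate synthase (1.90 [2.11]), and Ctps, CTP synthase (1.73 [1.75]). Of 16 recombination and damage genes with a row 12 passed the filter on low values, 6 of them not above background in sham. Of these 12 genes 10 were higher in both fits, a share that the filter may have raised. Among them were Rad18 (1.01 [1.19]), Brip1 (at least 1.22 [1.49]) and the checkpoint kinase Chek1 (at least 0.96 [1.11]). Among 24 division regulators 14 were higher (18) and 2 lower. The pocket proteins, which hold cells out of division, parted, since Rbl1 rose (1.59 [1.85]) and Rbl2 fell (-1.42 [-1.18]). The phosphatase gene Cdkn3 rose (2.09 [2.57]). Myc rose as well (1.29 [1.32]).

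The CHR letters marked the mitotic lists in sequence as well. TTTGAA, searched on both strands from 250 bases before to 50 after the start, was found in 17.9% of all 32851 RefSeq promoter windows and in 13.9% of the windows of genes tested. It was found in 22 of 26 windows of the spindle list (84.6%), and in 50% of the windows of the kinase list and of the kinetochore list. The licensing list was at 17.2%. Any of the E2F strings was found in 13 of 29 licensing windows (44.8%) against 2.96% of all windows and 4.74% of the windows of genes tested. The share was 7.69% in the spindle list, 5% in the kinase list and 15.4% in the kinetochore list. CCAAT was found in 37.4% of all windows, 73.1% of spindle windows and 85% of kinase windows. It was also found in 69.2% of kinetochore windows and 58.6% of licensing windows. Of 29 TTTGAA matches in the spindle list 22 lay within 50 bases of the start. Some genes have several windows, and these shares describe letters, not binding.

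**Figure D3:**
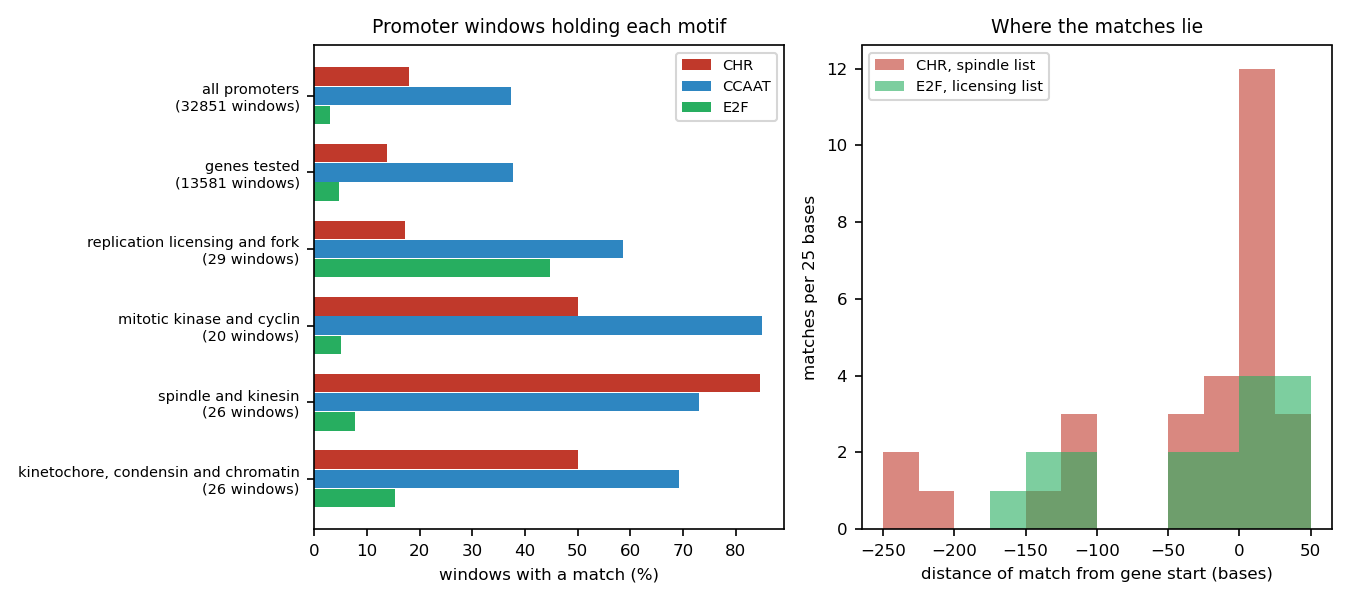
Left, percentage of RefSeq promoter windows that hold the CHR letters, CCAAT or any E2F string, for all promoters, for genes tested and for 4 division lists. Right, distance of each match from the gene start in bases, for CHR in the spindle list and E2F in the licensing list. CHR stands at 84.6% in the spindle list and E2F at 44.8% in the licensing list, against 17.9% and 2.96% of all promoters.

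Division genes were higher on day 3 than on day 1, and lower again on day 7. These comparisons share the day 3 arrays with the comparison against sham, so their values are set side by side only. Against day 1, 5.96% of the genes were higher on day 3 and 2.16% lower, and 18.8% and 16.7% without array 31. All 25 spindle genes were higher on day 3 than on day 1 in both fits, with Mki67 up by 5.67 [6.44], Top2a by 3.89 [4.48] and Kif11 by 3.97 [4.62]. The core histone genes H2ac10 and H2ac14, which have near-identical copies and are uncertain for that reason, were up by 3.93 [4.46] and 4.14 [4.73]. Col3a1, a collagen chain, was the sixth of the largest rises over day 1 (3.85 [4.42]). Mki67 read 5.47 to 5.62 on the day 1 arrays, next to 5.11 to 5.53 in sham. Day 7 against day 3 had 4.07% of genes higher and 8.59% lower, and 3.54% and 12.1% without array 31. Of the spindle list 5 genes fell from day 3 to day 7 with array 31 and all 25 without it. The spindle score, the mean over members of the log2 signal minus the sham mean, was 0.04 to 0.14 on the day 1 arrays, 2.31 to 2.43 on arrays 32 to 34, 0.84 on array 31 and 1.37 to 1.58 on day 7. The licensing score stood at 1.01 to 1.02 on arrays 32 to 34 and at 0.27 to 0.32 on day 7.

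Myeloid genes rose steeply. Neutrophils arrive before monocytes, and macrophages of several origins share the tissue afterwards. All 18 general macrophage genes rose in both fits, with a median of 3.42 [3.68], and so did 14 of 15 genes of monocytes and recruited macrophages, with a median of 3.86 [3.82]. Ctss read 9.81, 9.76, 9.42 and 9.37 in sham and 14.82, 15.36, 16.48 and 16.16 on arrays 31 to 34. Itgam, the integrin CD11b, read 6.42, 6.11, 6.08 and 5.81 in sham and 12.70, 10.79, 10.79 and 10.57 on arrays 31 to 34, highest on array 31. Its difference was 5.11 (SE 0.47, adjusted p = 2.5e-06), and 4.61 (SE 0.37, adjusted p = 4.1e-07) without array 31. Ccr2, the receptor that brings monocytes from blood, read 4.96, 4.95, 4.59 and 4.49 in sham and 8.86, 9.37, 9.21 and 9.07 on arrays 31 to 34. Here the 4 day 3 arrays agreed, and the difference was 4.38 (SE 0.32, adjusted p = 5.8e-07), and 4.47 (SE 0.35, adjusted p = 3.3e-07) without array 31. All 15 genes of the phagocyte oxidase and Fc receptors rose in both fits, led by Fcgr1 (5.0 [5.55]), Fcgr4 (at least 3.56 [3.86]) and Fcer1g (3.50 [3.76]).

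Neutrophil genes were far higher on array 31 than on the other day 3 arrays. Of 17 with a row 11 passed the filter on low values, 4 of them not above background in sham. Of these 11 genes 10 were higher (9 without array 31), with a median of 2.21 [1.39]. The filter may have raised both the share and the median. S100a8, a calgranulin abundant in neutrophils, read 4.05, 4.63, 4.31 and 3.98 in sham, 7.87, 7.67 and 7.96 on arrays 32 to 34 and 13.64 on array 31, next to 11.56 to 13.60 on the day 1 arrays. The difference was 5.04 (SE 1.0, adjusted p = 0.00097), and 3.59 (SE 0.33, adjusted p = 1.4e-06) without array 31. Its partner S100a9 differed by 3.93 [2.55] and Csf3r, the receptor for granulocyte colony-stimulating factor, by 3.05 [1.76]. The neutrophil score was -0.09 to 0.14 on the sham arrays, 4.20 to 5.33 on day 1, 1.51 to 1.60 on arrays 32 to 34, 4.49 on array 31 and 0.08 to 0.21 on day 7. Without array 31, all 11 genes were lower on day 3 than on day 1, against 6 with it. Retnlg, a resistin-like gene of neutrophils, was lower than on day 1 (-6.12 [-7.31]). Against sham it was called with array 31 (at least 2.25, adjusted p = 0.039) and not without it (at least 1.06, adjusted p = 0.071), and leaving out any one of the sham arrays also ended the call (adjusted p up to 0.0749). Mmp8, neutrophil collagenase, and Il18rap, an interleukin 18 receptor chain, were lower than on day 1 as well, at -2.69 [-3.20] and -2.48 [-2.97].

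Genes of resident macrophages divided. Lyve1, carried by resident macrophages and by lymphatic vessels, read 12.83, 12.36, 12.02 and 12.40 in sham and 8.47, 10.97, 10.93 and 9.96 on arrays 31 to 34, a difference of -2.32 (SE 0.44, adjusted p = 0.00069), and -1.78 (SE 0.28, adjusted p = 0.00015) without array 31. Timd4, a receptor for dead cells on self-renewing macrophages, fell as well (-0.75 [-0.77]), and is named after its values were seen. Mrc1, the mannose receptor, went the other way, at 11.52, 11.45, 11.31 and 11.56 in sham and 14.38, 13.31 and 13.73 on arrays 32 to 34. Array 31 read 11.21, below all sham values, and the difference was 1.70 (SE 0.48, adjusted p = 0.010), and 2.34 (SE 0.23, adjusted p = 3.1e-06) without array 31. Igf1, a growth factor made by macrophages and fibroblasts, showed the same layout, with 6.55 on array 31 and 8.30 to 8.52 on arrays 32 to 34 against 6.49 to 6.77 in sham (1.33 [1.80]). Over all genes 23.5% were higher and 20.2% lower (26.8% and 18.4% without array 31). In all 4 of 11 resident macrophage genes were higher and 2 lower, and 6 and 2 without array 31. The score was -1.28 on array 31 and 0.43 to 1.12 on arrays 32 to 34. Among 17 genes of lipid-handling macrophages 12 were higher and 1 lower (14 and 0), led by Anxa2 (3.78 [3.76]), the lipid droplet coat Plin2 (2.44 [2.30]) and Anxa1 (1.96 [2.45]).

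Lymphocyte genes gave no call. Of the 17 lymphocyte genes listed 15 had a row and 4 passed the filter on low values, and none was called in either fit, with Ighm at 0.19 [0.21] and Gzma not above background on any day 3 array. The list median was 0.10 as deposited and -0.03 after quantile normalization. Antigen presentation moved modestly, with 4 of 9 genes higher (5), among them H2-Aa (0.84 [1.06]), Cd209a (0.72 [0.83]) and H2-DMb1 (0.64 [0.81]). H2-Aa and H2-DMb1 lost the call when any one of arrays 32, 33 and 34 or of sham arrays 1, 3 and 4 was left out, with adjusted p up to 0.0973 and 0.108. Mast cell genes went both ways, Hpgds (1.16 [1.57]) and Kit (1.02 [0.52]) upward and the carboxypeptidase Cpa3 downward (-1.01 [-1.01]). Hpgds lost the call without array 32 or 33 (adjusted p up to 0.0539) and Kit without sham array 2, 3 or 4 (up to 0.0575).

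Signals that call in myeloid cells rose with them. Of 20 chemokines 14 were higher and 0 lower (12 and 1 without array 31). The monocyte attractants led, with Ccl12 (4.65 [5.16]), Ccl7 (4.47 [4.67]) and Ccl9 (4.03 [4.28]). Ccl7 read 5.79, 4.85, 4.83 and 4.40 in sham and 8.82, 8.60, 9.99 and 10.33 on arrays 31 to 34, and was back at 5.54 to 6.13 on day 7. Of 17 cytokines and receptors 15 were higher in both fits. Il4ra, the shared receptor chain for interleukins 4 and 13, read 7.23, 6.96, 6.78 and 7.00 in sham and 12.18, 10.88, 11.00 and 11.20 on arrays 31 to 34, a difference of 4.32 (SE 0.31, adjusted p = 5.4e-07), and 4.04 (SE 0.27, adjusted p = 9.8e-08) without array 31. Il1b, interleukin 1 beta, rose (3.83 [3.14]), with array 31 highest at 10.69 and the others at 7.65 to 8.39. The decoy receptor Il1r2 rose by at least 3.32 [2.05], array 31 at 11.63 lying within the day 1 range of 11.18 to 13.02. Complement genes rose in 7 of 11 (8), with C3ar1, the C3a receptor (4.05 [4.38]), Cfp, properdin (2.29 [2.55]), and C1qb (2.03 [2.88]). C1qb read 10.04, 13.23, 13.82 and 13.35 on arrays 31 to 34 against 10.38 to 10.95 in sham, so that array 31 was the only day 3 array below the sham values. Without array 33 the call was lost (adjusted p = 0.0539).

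Interferon-stimulated genes split the day 3 arrays. The list score was 3.19 on array 33 and 2.67 on array 34, but 0.21 on array 32 and 0.05 on array 31, where sham ran from -0.14 to 0.17. Usp18, which shuts off interferon signalling, read 5.54, 5.57, 6.16 and 5.39 in sham and 6.15, 6.12, 11.00 and 10.29 on arrays 31 to 34. Arrays 31 and 32 lay within the sham range and arrays 33 and 34 several log2 units above it. The difference was 2.73 (SE 0.96, adjusted p = 0.033), and 3.47 (SE 0.91, adjusted p = 0.0065) without array 31. The RNA sensors Oas1a and Oas2 also divided the day 3 arrays, with 6.33, 6.38, 9.45 and 8.99 and 6.15, 5.97, 9.0 and 8.44 on arrays 31 to 34 against 5.42 to 6.01 and 5.36 to 5.76 in sham. Here arrays 31 and 32 lay just above the sham range. They differed from sham by 2.09 [2.57] and 1.84 [2.25]. Leaving out array 33 or 34 ended the call of Oas2 (adjusted p up to 0.0607), and the call of Usp18 also fell away without sham array 1, 2 or 4 (up to 0.104). Of 20 genes 8 were called higher, and 16 without array 31, while array 32 stayed low. Some of the largest rises had part of this layout, with Ms4a4c at 10.33, 9.65, 14.79 and 14.10 and Ccl12 at 8.83, 9.62, 11.53 and 11.45 on arrays 31 to 34. All 4 day 7 arrays had a high interferon score, 1.75 to 3.95, and the day 1 arrays ran from 0.27 to 1.42.

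**Figure D4:**
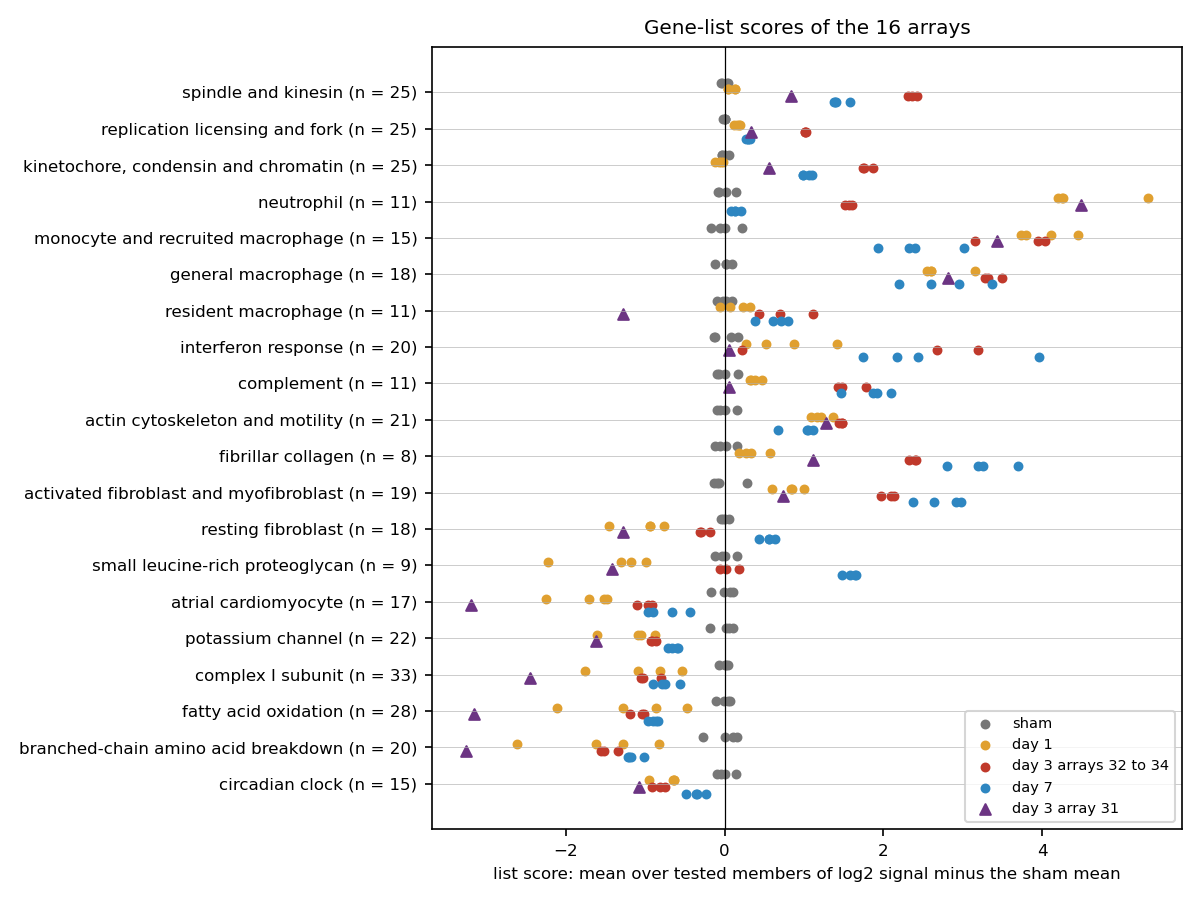
Score of 20 gene lists on each of the 16 arrays, the mean over tested members of the log2 signal minus the sham mean. Sham is grey, day 1 yellow, day 3 arrays 32 to 34 red, array 31 a purple triangle, and day 7 blue. Spindle scores peak on arrays 32 to 34, neutrophil scores on day 1 and array 31, and muscle and metabolic lists lie below 0 on all day 3 arrays, array 31 lowest.

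Cytoskeletal genes of moving cells rose almost without exception. Of 21 genes of the actin cytoskeleton 19 were higher in both fits, led by Lcp1, plastin of leukocytes (3.60 [3.51]), Flna, filamin A (2.97 [3.04]), and Msn, moesin (2.96 [2.91]). Actb, beta actin, often used as a loading control, read 14.80, 14.38, 14.20 and 14.27 in sham and 16.48, 16.40, 16.42 and 16.29 on arrays 31 to 34, a difference of 1.99 (SE 0.19, adjusted p = 3.0e-06), and 1.96 (SE 0.20, adjusted p = 3.9e-06) without array 31. It was higher after quantile normalization and after centring, with and without array 31. Gapdh was on a plateau on all arrays and no difference could be read from it.

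Collagen and its processing followed. Fibrillar collagen is secreted as a precursor, hydroxylated in the endoplasmic reticulum, and crosslinked outside the cell by lysyl oxidases. Col1a1, the main chain of type I collagen, read 7.19, 6.97, 6.84 and 6.67 in sham, 11.60, 11.72 and 11.55 on arrays 32 to 34 and 8.73 on array 31. The difference was 3.98 (SE 0.56, adjusted p = 6.5e-05), and 4.70 (SE 0.32, adjusted p = 1.0e-07) without array 31. Col1a2 (3.97 [4.71]) and Col3a1 (4.69 [5.26]) rose with it, and in all 6 of 8 fibrillar collagen genes were higher in both fits. Of 16 other collagens 9 were higher and 2 lower (11 and 1), among the rises Col8a1 (2.86 [3.39]), Col12a1 (2.69 [3.04]) and Col4a1 of basement membrane (1.63 [1.84]). Of 22 maturation and secretion genes 17 were higher (19), with Lox, P4hb, the beta subunit of prolyl hydroxylase (2.48 [2.55]), and Loxl1 (2.31 [2.62]). P4hb was among the most even of these, at 12.67, 12.73, 12.65 and 12.70 in sham and 14.98, 15.22, 15.27 and 15.22 on arrays 31 to 34.

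Genes of activated fibroblasts rose and several genes of resting fibroblasts fell. Postn, periostin of activated fibroblasts, read 12.31, 11.35, 12.29 and 11.92 in sham, 17.17, 17.48 and 17.17 on arrays 32 to 34 and 13.37 on array 31. Its difference was 4.33 (SE 0.67, adjusted p = 0.00015), and 5.31 (SE 0.23, adjusted p = 7.9e-10) without array 31. Of 19 genes of activated fibroblasts 13 were higher (16), Actn1, non-muscle alpha actinin, among them (3.27 [3.32]). Of 21 matricellular genes 15 were higher and 1 lower in both fits. Of 18 genes of resting fibroblasts 2 were higher (2) and 7 lower in both fits, the falls led by Gsn, gelsolin (-1.99 [-1.71]), Fbln1, fibulin 1 (-1.69 [-1.50]), and the protease Htra3 (-1.53 [-1.26]). Among 9 small leucine-rich proteoglycans, which space collagen fibrils, Bgn, biglycan, rose (1.72 [2.01]) and Podn, podocan, fell (-2.58 [-2.30]). Prelp was called lower with array 31 (-1.05, adjusted p = 0.024) and not without it (-0.75, adjusted p = 0.069), nor without sham array 1 or 3 (up to 0.0731). Aspn, asporin, was called without array 31 (2.30, adjusted p = 0.00091) and not with it (1.31, adjusted p = 0.18), and array 31 read 9.44 against 13.08 to 13.75 on the others.

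Several matrix lists were higher on day 7 than on day 3, against 4.07% of all genes higher and 8.59% lower (3.54% and 12.1% without array 31). Fibrillar collagens had 6 of 8 higher (6), other collagens 7 of 16 (8), matricellular genes 11 of 21 (10), with 1 lower, and small leucine-rich proteoglycans 8 of 9 (8). Proteases and inhibitors went both ways, with 6 higher and 9 lower of 24 (6 and 10), as did collagen maturation, with 5 and 4 of 22 (4 and 6). Tnc was lower on day 7 without array 31 (-1.81, adjusted p = 0.0018) and not called with it (-1.24, adjusted p = 0.099). Col1a1 read 12.65 to 14.60 on the day 7 arrays and was higher than on day 3 by 2.75 [2.03], and Postn by 2.54 [1.57]. The largest rises from day 3 to day 7 were in Ptn, pleiotrophin (4.96 [4.74]), Aspn (4.23 [3.24]), Thbs2, thrombospondin 2 (3.77 [3.38]), Itm2a (3.59 [2.98]), Fbln5, fibulin 5 of elastic fibres (3.43 [2.78]), and Mmp2, gelatinase A (3.36 [3.15]). Thbs2 and Mmp2 were not called on day 3 against sham in either fit, at 0.12 [0.51] and -0.13 [0.09]. The genes with the largest falls from day 3 to day 7 were Arg1 (-5.63 [-4.88]), S100a8 (-4.39 [-2.93]), S100a9 (-3.86 [-2.48]), Ccl7 (-3.59 [-3.80]), Il1r2 (-3.55 [-2.28]) and Hmox1 (-3.28 [-3.36]).

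Proteases, their inhibitors and growth factors of the matrix also moved. Of 24 proteases and inhibitors 17 were higher and 1 lower in both fits. Timp1, the inhibitor of metalloproteinases, read 7.06, 5.72, 5.53 and 5.75 in sham and 11.64, 10.52, 10.97 and 10.93 on arrays 31 to 34, a difference of 4.99 [4.79]. Mmp14, a membrane-bound collagenase, rose by 3.02 [3.03] and the serpin Serpina3n by 3.43 [4.02]. For Serpina3n sham array 1, at 12.38, lay above array 31, at 12.11. In the basement membrane list 4 of 10 genes were higher and 2 lower (6 and 2), Lama4 (1.07 [1.10]) and Nid2 (0.96 [0.93]) upward and Lama2, the laminin chain of muscle, downward (-1.21 [-0.64]). Lama2 lost the call without sham array 2, 3 or 4 (adjusted p up to 0.0746). Of 21 genes of transforming growth factor and related signals 10 were higher and 2 lower (11 and 1), with Fstl1 (2.89 [3.38]), Tgfb3 (2.02 [2.49]) and Tgfb2 (1.53 [1.81]) in front.

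Genes of atrial muscle fell, against a background of 20.2% of genes called lower (18.4% without array 31). Of 17 genes of atrial cardiomyocytes 12 were lower and 0 higher, and 10 and 1 without array 31, with medians of -1.34 and -0.76. The calls of Myl7 and Sln were lost when any of several single arrays was left out, array 31 among them. The spread in the fit is shared with the other days. On day 1 Myl7 ran from 11.905 to 16.527 and Sln from 10.005 to 14.404. Myl7 read 15.79, 16.39 and 15.51 on arrays 32 to 34 and 10.23 on array 31, a difference of -3.49 (SE 1.20, adjusted p = 0.028), and -2.08 (SE 0.83, adjusted p = 0.056) without array 31. Sln read 16.35, 16.27 and 15.67 on arrays 32 to 34 and 9.54 on array 31, a difference of -3.51 (SE 1.29, adjusted p = 0.040), and -1.87 (SE 0.79, adjusted p = 0.070) without array 31. For both genes all day 3 values lay below all sham values, and the call was lost without array 31. It was also lost without any of sham arrays 1, 2 and 4 for Myl7 (adjusted p up to 0.0617) and without any sham array for Sln (up to 0.0775). Myl4 gave no call (-0.30 [0.00]). Of 9 ventricular genes 7 were lower in both fits, among them Mylk3, a kinase of cardiac myosin (-2.52 [-1.61]), Kcnj2 (-2.04 [-1.73]) and Fhl2 (-2.02 [-1.40]).

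Channels and contractile genes fell with them. Of 22 potassium channel genes 17 were lower and 1 higher (16 and 1), with a median of -0.85 [-0.73]. After Kcnj3 came Abcc9, a subunit of the ATP-sensitive channel, at 13.67, 13.96, 14.28 and 14.04 in sham and 10.17, 11.63, 10.99 and 11.51 on arrays 31 to 34 (-2.91 [-2.61]). Kcnk3, an acid-sensitive leak channel of the atria, fell by a similar size (-2.51 [-2.09]). Of 10 sodium and calcium channel genes 9 were lower and 1 higher (8 and 1), including Cacna1c, the pore of the L-type calcium channel (-1.79 [-1.16]), and Fgf13, a modulator of sodium channels (-1.45 [-1.26]). Scn7a was called only with array 31 (-1.66, adjusted p = 0.028, against -1.05, adjusted p = 0.067, without it), and leaving out sham array 1, 2 or 4 ended that call too (up to 0.0658). Of 19 genes of calcium handling 10 were lower (10), 9 of them in both fits, and none was higher, with the falls led after Sln by Hrc, which binds calcium in the reticulum (-3.12 [-2.70]), and S100a1 (-1.92 [-1.26]). Of 23 sarcomere genes 11 were lower (12) and 2 higher in both fits, with Cmya5 (-3.29 [-2.63]) and Mybphl, a myosin-binding protein of the atria (-2.59 [-1.44]), after Tcap. The call of Mybphl was lost without sham array 2 or 4 (adjusted p up to 0.0626). Of 18 junction genes 7 were lower and 1 higher in both fits, the desmosomal Dsc2 (-2.66 [-2.26]) and Dsg2 (-1.65 [-1.05]) and the membrane protein Bves (-2.03 [-1.52]) among the falls.

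Genes answering wall stress moved apart from these. Nppb, B-type natriuretic peptide, read 15.22, 14.71, 13.38 and 13.76 in sham and 17.65, 17.55, 17.67 and 17.61 on arrays 31 to 34. The 4 day 3 values lay close together and above all sham values, which themselves were spread from 13.38 to 15.22. The difference was 3.35 (SE 0.34, adjusted p = 4.9e-06), and 3.34 (SE 0.37, adjusted p = 7.3e-06) without array 31. Nrg1, neuregulin (2.40 [2.54]), and Hbegf, a ligand of the epidermal growth factor receptor (1.95 [1.60]), rose too. Hbegf was lower than on day 1 (-2.56 [-2.91]), as were the muscle genes Lmcd1 (-3.19 [-3.42]) and Klhl41 (-2.73 [-2.82]). Over the 17 genes of wall stress and the fetal programme 8 were higher and 2 lower (7 and 2), against the 23.5% and 20.2% of all genes.

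Most genes of oxidative metabolism fell. All 33 complex I subunits tested were lower (31 without array 31), with a median of -1.38 [-1.0], and none was higher in either fit. Ndufa8 read 14.66, 14.75, 14.89 and 14.95 in sham, 12.98, 12.65 and 12.70 on arrays 32 to 34 and 10.62 on array 31. Its difference was -2.58 (SE 0.47, adjusted p = 0.00059), and -2.04 (SE 0.35, adjusted p = 0.00028) without array 31. Ndufs8 (-2.39 [-1.62]) and Ndufa10 (-1.88 [-1.37]), of the same complex, fell too. Of 40 subunits of complexes II to V 36 were lower (32), with the muscle forms of cytochrome oxidase Cox7a1 (-2.66 [-1.76]), Cox8b (-2.36 [-1.56]) and Cox6a2 (-2.04 [-1.74]) in the lead. The citric acid cycle and pyruvate entry list had 26 of 27 lower (25), among them Pdk2, a kinase of pyruvate dehydrogenase (-2.70 [-2.06]), Sdhc of succinate dehydrogenase (-2.01 [-1.52]), and Idh2 (-1.98 [-1.42]). Pdk4, which limits pyruvate entry when fat is burned, was the exception, called higher without array 31 (1.37) and not called with it (0.56), and is named after its values were seen.

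The fuels showed the same direction. Fatty acid oxidation had 25 of 28 genes lower (22), with Acot2 (-3.40 [-2.70]), the carnitine enzyme Cpt2 (-2.83 [-2.17]) and Hadh (-2.47 [-1.74]). All 20 genes of branched-chain amino acid breakdown were lower in both fits, with a median of -1.82 [-1.39]. Mmut, methylmalonyl-CoA mutase, read 13.32, 13.71, 13.85 and 13.80 in sham and 8.84, 11.50, 11.21 and 11.31 on arrays 31 to 34, and Dbt and Ppm1k fell alike (-2.90 [-2.41] and -2.92 [-2.17]). Of 34 proteins of the mitochondrial ribosome 31 were lower (26) and 0 higher (1), the falls led by Mrpl16 (-1.55 [-1.16]), Mrps9 (-1.52 [-1.22]) and Mrpl37 (-1.49 [-1.25]). Of 18 regulators 15 were lower and 1 higher (14 and 1). Ppargc1a, the coactivator that drives mitochondrial genes, read 14.46, 14.57, 14.58 and 14.77 in sham and 9.48, 12.40, 12.36 and 12.30 on arrays 31 to 34, a difference of -2.96 (SE 0.63, adjusted p = 0.0016), and -2.24 (SE 0.46, adjusted p = 0.0011) without array 31. Lpin1 (-2.93 [-2.30]) and Klf9 (-2.84 [-2.25]) fell by a like size. On array 31 these lists stood lowest of all 16 arrays, the fatty acid score at -3.16 against -1.19 to -1.02 on arrays 32 to 34, -2.12 to -0.47 on day 1 and -0.97 to -0.83 on day 7.

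Glycolysis genes went both ways, to be read against 23.5% of all genes higher and 20.2% lower (26.8% and 18.4% without array 31). Of 24 genes 11 were higher and 8 lower (10 and 7 without array 31), and the list median was near 0 and changed sign with scaling, 0.20 as deposited and -0.07 after quantile normalization. The falls were led by Slc2a4, the insulin-responsive glucose carrier (-3.09 [-2.37]), and by the muscle isoforms Pfkm of phosphofructokinase (-2.76 [-2.01]) and Pgam2 of phosphoglycerate mutase (-2.29 [-1.64]). Their counterparts in other tissues, named after their values were seen, went the other way, with Slc2a1 at 1.75 [1.09], Pfkp at 1.19 [0.88] and Pgam1 at 1.16 [1.27]. Slc2a4 read 10.83, 11.20, 11.54 and 11.25 in sham and 5.96, 8.73, 8.85 and 8.93 on arrays 31 to 34. Slc2a1 read 8.08, 8.54, 9.01 and 8.81 in sham, 9.47, 9.84 and 9.78 on arrays 32 to 34 and 12.37 on array 31, the last within the day 1 range of 11.28 to 12.85.

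Clock genes fell in part. The core activator Arntl and the outputs it drives cycle in opposite phase in the heart. Of 15 genes 8 were lower and 1 higher in both fits. Dbp read 9.95, 10.02, 9.84 and 9.44 in sham and 5.81, 6.58, 5.91 and 6.86 on arrays 31 to 34, a difference of -3.52 (SE 0.27, adjusted p = 6.8e-07), and -3.36 (SE 0.27, adjusted p = 4.1e-07) without array 31. Nr1d2 (-2.67 [-2.31]) and Nr1d1 (-2.23 [-2.19]), the repressors of the loop, fell as well, and Tef (-1.65 [-1.60]) and Hlf (fall of at least 1.11, not above background on day 3), named with Arntl after their values were seen, fell with Dbp. Arntl alone in the list was called higher (0.95 [1.12]). Nr1d1 split the sham arrays, at 9.30, 9.22, 7.13 and 6.52. The labels name no hour of tissue collection, and its part was not tested.

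Stress responses were mixed, to be read against 23.5% of all genes higher and 20.2% lower (26.8% and 18.4% without array 31). Of 20 genes of folding in the endoplasmic reticulum 13 were higher and 3 lower (15 and 3), with P4hb and Edem1, which clears misfolded protein (2.45 [2.57]), upward and Herpud1 downward (-3.14 [-2.43]). Of 20 heat shock genes 10 were lower and 1 higher (8 and 3), Hspa4l (-1.26 [-0.95]) and the mitochondrial Hspd1 (-0.89 [-0.71]) among the falls and Hsp90aa1 among the rises (1.03 [1.07]). Hsp90aa1 lost the call without sham array 3 or 4 (adjusted p up to 0.0595). Antioxidant genes had 5 of 18 higher and 6 lower in both fits, Hmox1 rising and Gstm1 (-2.70 [-2.22]) and Cat, catalase (-2.06 [-1.50]), falling. Among 19 hypoxia targets 6 were higher and 5 lower (6 and 6), with Egln1 (-1.84 [-1.73]) and Epas1 (-1.76 [-1.17]) lower and a median of 0.19 that without array 31 was 0.06 as deposited and -0.14 after quantile normalization. Immediate early factors had 8 of 22 higher and 1 lower (9 and 0), Ier3 (1.94 [1.42]) and Fosl2 (1.06 [1.03]) with Myc. After quantile normalization 4 were higher and 1 lower (6 and 1). The score of this list was 0.212 to 0.41 on the day 3 arrays, inside the sham range of -0.355 to 0.489.

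Genes of the other cell types of the heart were called in both directions, to be read against 23.5% of all genes higher and 20.2% lower (26.8% and 18.4% without array 31). The shares of the endothelial list were close to these with array 31, and those of the epicardial list below them. Of 22 endothelial genes 5 were higher and 4 lower (8 and 3), and the median, 0.09, turned to -0.10 after quantile normalization. The adhesion molecules Selp (1.79 [1.56]) and Vcam1 (1.64 [2.31]) rose, and Npr3, the clearance receptor for natriuretic peptides, fell (-2.18 [-1.66]). For Vcam1 array 31 read 8.32, below sham, and the others 10.91 to 11.16, and the call was lost when any of those others was left out (adjusted p up to 0.0537). Of 14 genes of smooth muscle and pericytes 2 were higher and 5 lower (3 and 5), Mcam upward (2.72 [2.72]) and Rgs5 downward (-2.14 [-1.49]). Without array 31 the median of this list was 0.02 as deposited and -0.01 after quantile normalization. The epicardial median turned from 0.12 to -0.02 with all arrays and stayed above 0 without array 31, at 0.37 and 0.33. In the list of epicardial cells 3 of 17 were higher and 2 lower (7 and 2), with Aldh1a2, which makes retinoic acid, at 7.28, 6.75, 6.45 and 6.70 in sham and 9.63, 10.62, 10.81 and 10.35 on arrays 31 to 34 (3.56 [3.80]). Prg4, lubricin (3.21 [2.24]), and Saa3 (1.48 [1.67]) rose with it. Sham array 1 was high for Prg4, at 12.42, with the other sham arrays at 9.81 to 10.28 and the lowest day 3 value at 12.54. Of 6 lymphatic genes 2 were higher and 4 lower (1 and 4), Pdpn, podoplanin, rising (2.59 [2.43]) and Prox1 falling (-1.41 [-0.98]).

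Few genes of neighbouring tissues passed the filter. In the nerve list 2 of 4 were lower, Cdh19 in both fits (-1.47 [-1.29]) and Stmn2 with array 31 only (-0.49 [-0.31]), a call that was also lost without sham array 3 (adjusted p = 0.0907). Of 4 genes of the sinoatrial node 3 were lower with array 31, among them Igfbp5 (-3.28 [-2.66]), Tbx3 (-0.31 [-0.32]) and Smoc2 (-0.45), the last not called without it (-0.27) nor without array 33 or sham array 2, 3 or 4 (adjusted p up to 0.0739). One of 4 adipocyte genes was lower, Plin4 (-1.61 [-1.28]). Of 6 skeletal muscle genes 4 were lower and 1 higher in both fits, with Ckm, muscle creatine kinase, at -2.58 [-2.14], and Tnnt3, a fast troponin T, at 1.13 [1.46]. Myh2, a fast myosin heavy chain, was not above background on any day 3 array. The single erythrocyte gene tested, Alas2, was called only without array 31 (-0.26), and neither lung nor thymic and lymph node genes gave a call, with Ccl19 at 0.28 [-0.11] and Ccl25 at 0.14 [0.11].

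**Figure D5:**
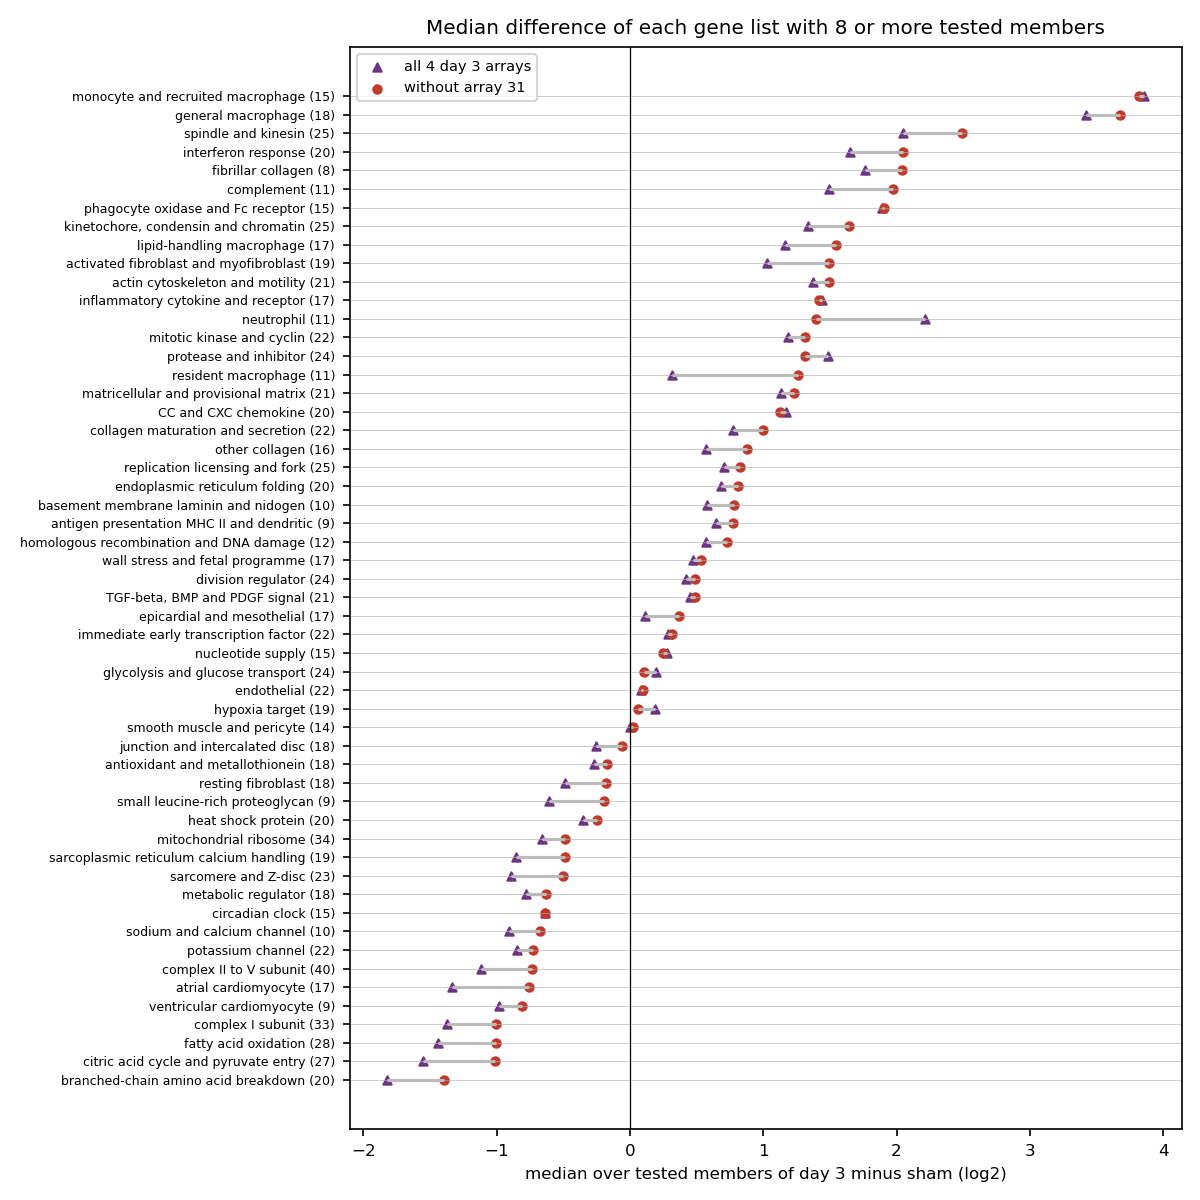
Median over tested members of the log2 difference between day 3 and sham, for the 54 gene lists with at least 8 tested members (number in brackets), with all 4 day 3 arrays (purple triangles) and without array 31 (red circles). The lists of monocytes and recruited macrophages and of general macrophages lie at the top. The neutrophil list with array 31 and the spindle list without it follow. Branched-chain amino acid breakdown lies at the bottom, and the lists of resident and lipid-handling macrophages lie in between. Leaving out array 31 moves muscle and metabolic lists toward 0 and lowers the neutrophil list from 2.21 to 1.39.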

How the data were processed

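Total RNA from atria was measured on 16 single-colour arrays. The authors deposited a table of log2 signals with 72688 rows, made with Affymetrix Expression Console per the submitters' processing notes. No source used here states the summarisation, the scaling or the version. The labels name a different array design from the one the rows fit, so rows were named only from the platform annotation. Rows with 1 symbol gave 30062 genes, with the highest-mean row where a gene had several, and 18389 genes above the array median on at least 4 arrays were tested.

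The deposited log2 values were fitted with limma 3.58.1 (R 4.3.3; lmFit, eBayes with trend) over all 16 arrays with 1 mean per group, and again without array 31. P-values were adjusted over all genes tested (Benjamini-Hochberg) and genes called under 0.05. The fit was tested on simulated data in which each gene had the same spread on every array. An outlying array such as array 31 was not simulated. A gene at or below the median negative control on all 4 arrays of a group has only a bound there, and genes at the top of the scale (mean above 19, SD under 0.05 below the maximum) have no readable difference. Arrays limit precision by their number.

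Named genes were the 15 largest rises and falls called in both fits without overlap of the groups, up to 3 called members of each list, 12 marker genes, and the 6 largest differences each way between days. Members and lists were chosen with earlier results of these data known. Promoter and miRNA sequences are RefSeq's (GRCm38.p6). Alternatives covered scaling, filter, variance model, array weights, rows and each array left out.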

Additional observations from a re-analysis of the deposited data

Results flagged for a closer look

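In each group of 4 arrays a value was picked out when its gap to the nearest of the others took up most of the group's range (Dixon's test at the 95% level). Of 117 groups tested 40 were picked out. Independent groups would give about 1 in 20 by chance. These groups share the same arrays and some genes, so the count cannot be read against that rate. In day 3 all 36 were at array 31. Scores are mean log2 differences from the sham mean, and the range of arrays 32 to 34 follows each value of array 31.

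Control separation of day 3 was left out, since array 31 was singled out by it. The median correlation of array 31 with its group was 0.935 (0.995 to 0.996). The neutrophil score was 4.49 (1.51 to 1.60) and the hypoxia score 0.77 (-0.02 to 0.11), both above the other day 3 arrays.

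Division scores of array 31 were lower than on the others. They were 0.84 for spindle and kinesin genes (2.31 to 2.43), 0.55 for mitotic kinases and cyclins (1.35 to 1.48), 0.56 for kinetochore genes (1.75 to 1.87), 0.33 for replication licensing (1.01 to 1.02), 0.16 for nucleotide supply (0.69), 0.24 for recombination (0.67 to 0.74) and -0.01 for division regulators (0.56 to 0.62).

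Matrix and macrophage scores of array 31 were 1.11 for fibrillar collagen (2.32 to 2.42), 0.27 for other collagens (0.98 to 1.04), 0.67 for collagen maturation (1.32 to 1.45), -0.39 for basement membrane (0.41 to 0.43), -1.41 for small leucine-rich proteoglycans (-0.06 to 0.18) and 0.09 for transforming growth factor signals (0.64 to 0.68). Activated fibroblast genes stood at 0.74 (1.97 to 2.13), resting fibroblast genes at -1.27 (-0.31 to -0.19) and genes of lipid-handling macrophages at 0.48 (1.33 to 1.42).

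Muscle scores of array 31 were -3.19 for atrial cardiomyocyte genes (-1.10 to -0.91), -1.98 for ventricular genes (-0.99 to -0.79), -2.14 for the sarcomere (-0.65 to -0.61), -1.62 for potassium channels (-0.92 to -0.87), -1.51 for sodium and calcium channels (-0.66 to -0.58), -2.12 for calcium handling (-0.69 to -0.61) and -1.29 for junctions (-0.38 to -0.35).

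Metabolic and stress scores of array 31 were -2.45 for complex I (-1.05 to -0.80), -2.27 for complexes II to V (-0.82 to -0.61), -2.69 for the citric acid cycle (-0.97 to -0.86), -3.16 for fatty acid oxidation (-1.19 to -1.02), -3.25 for branched-chain amino acid breakdown (-1.56 to -1.34), -1.96 for metabolic regulators (-0.95 to -0.92) and -1.32 for the mitochondrial ribosome (-0.62 to -0.51). Endoplasmic reticulum folding stood at 0.35 (0.81 to 0.84), antioxidant genes at -0.58 (0.00 to 0.06) and heat shock genes at -0.55 (-0.21 to -0.16).

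In sham, array 1 stood apart in the activated fibroblast score (0.29, others -0.13 to -0.07), the sarcomere score (-0.12, others 0.03 to 0.05) and the median correlation with its group (0.996, others 0.997). Sham array 4 stood apart in the replication licensing score (-0.02, others 0.00 to 0.01).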

How the results depend on the processing

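Both counts of day 3 against sham stayed within 1.5 times the values given (4330 higher, 3722 lower) under the other settings tried, with 3 exceptions. Quantile normalization gave 2630 genes higher, centring gave 5652 lower, and centring without array 31, added after seeing the data, gave 5914 lower. Leaving out each array in turn gave 3853 to 4933 higher and 3145 to 3892 lower. Against day 1, where 1096 genes were higher and 398 lower, counts were 590 and 185 after quantile normalization, 3931 and 3504 with array weights, 208 and 46 with these groups alone, and 3037 and 2760 without arrays 31 and 13. Leaving out each array gave 557 to 3456 higher and 228 to 3074 lower, the highest counts without array 31. From day 3 to day 7, with 749 higher and 1580 lower, quantile normalization gave 362 lower, array weights 1729 and 3428, these groups alone 253 and 608, and leaving out arrays 31 and 13 gave 2803 lower. Leaving out each array gave 437 to 832 higher and 1019 to 2232 lower. The causes were not tested. Control separation differed by -0.0161 as an area and by -0.278 as a difference of medians with array 31. Without it the differences were 0.0035 and 0.0933. The change of sign rests on the array singled out by this measure, so no test of it is given. Of 211 named genes none changed sign while called, 21 lost the call with the day 3 and sham arrays alone, and 13 without sham array 4, the most of any single array. No paired analysis was possible because the groups share no replicate numbers.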

Other observations

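Small nuclear RNAs, the RNA parts of the splicing machinery, and ribosomal RNAs stood higher on day 3. Over all genes 23.5% were called higher and 20.2% lower (26.8% and 18.4% without array 31). Of 628 snRNA rows tested 435 were called higher and 2 lower, and 418 and 4 without array 31. The mean over these rows was 7.89 to 8.05 on the sham arrays, 8.86 to 9.07 on arrays 32 to 34 and 10.14 on array 31. Of 61 rRNA rows 59 were called higher in each fit, with means of 12.17 to 12.99 in sham, 14.35 to 14.47 on arrays 32 to 34 and 15.13 on array 31. On day 1 and day 7 the snRNA means were 8.9 to 9.8 and 8.3 to 8.8. The rRNA means were 12.9 to 13.5 and 13.0 to 13.9. Of 679 snoRNA rows 98 were higher and 7 lower (86 and 12), both below the shares of all genes. Many of these rows are near-identical copies of one another, so their counts are not counts of separate genes. The protein-coding genes had 2697 higher and 3168 lower, and 3269 and 2821 without array 31, so that on the deposited scale more fell than rose with array 31 and more rose than fell without it. Other scalings were not counted by RNA class.

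Rows of 3 miRNA genes of heart muscle and blood cells were chosen after their values were seen. Such rows read the hairpin or its host transcript, not the mature miRNA, which is printed below for reference from RefSeq (GRCm38.p6) with the seed, bases 2 to 8, in capitals. No 2 of these seeds are the same.
mmu-miR-208a-3p, chr14:54949072-54949093, minus strand: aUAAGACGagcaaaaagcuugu
mmu-miR-511-3p, chr2:14261051-14261072, plus strand: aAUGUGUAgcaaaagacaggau
mmu-miR-142a-3p, chr11:87756903-87756925, plus strand: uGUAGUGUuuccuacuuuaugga
Mir208a lies inside Myh6, the gene of the heart's main myosin heavy chain, and read 4.29, 5.04, 4.45 and 4.75 in sham and 3.18, 3.88, 3.45 and 3.57 on arrays 31 to 34. These values lie near the negative controls (mean of the array medians 4.49 in sham and 4.66 on day 3), and no day 3 value was above them, so no size of difference is given. Mir511 lies inside Mrc1, the mannose receptor of macrophages, and read 5.39, 5.34, 5.76 and 5.91 in sham and 6.15, 7.40, 6.91 and 7.63 on arrays 31 to 34, a rise of 1.42 (1.71 without array 31). The row of Mir142, a miRNA gene of blood cells, overlaps Mir142b and read 4.53, 4.27, 4.66 and 4.76 in sham and 7.63, 5.23, 4.99 and 4.99 on arrays 31 to 34. Its adjusted p was 0.053 with array 31 and 0.045 without it. Over all 312 miRNA rows tested 16 were higher and 17 lower (16 and 20 without array 31). Both shares lay below those of all genes, 23.5% and 20.2% (26.8% and 18.4% without array 31).

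Among long noncoding RNAs 53 of 842 were higher and 126 lower (46 and 142 without array 31). These shares too lay below the 23.5% and 20.2% of all genes (26.8% and 18.4% without array 31). Mhrt, transcribed antisense to Myh7, read 6.39, 6.74, 7.02 and 7.00 in sham and 5.31, 5.73, 5.72 and 5.66 on arrays 31 to 34, and Hand2os1, beside the heart factor Hand2, read 9.64, 9.82, 9.97 and 10.20 and 7.31, 8.60, 8.35 and 8.49. Morrbid, which prolongs the life of myeloid cells, went the other way, at 5.33, 5.20, 5.29 and 5.22 in sham and 6.06, 6.10, 5.92 and 5.94 on arrays 31 to 34. The groups did not overlap for any of these 3, which were chosen after their values were seen.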
